A study of Rattus norvegicus with 56 samples.

Results

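Dimethadione (DMO), the active metabolite of the anticonvulsant trimethadione, is given to pregnant rats to produce ventricular septal defects (VSDs), and some of the exposed fetuses keep an intact septum. The amniotic fluid of such exposed fetuses without a defect (non-VSD group) was compared here with that of unexposed fetuses (NC group) over all microRNAs counted. The members were the 7 non-VSD and 7 NC amniotic fluid samples, 14 of the 56 samples of the series. All came from Sprague-Dawley rats on embryonic day 19. Dams of the non-VSD fetuses had received DMO by repeated oral gavage, and dams of the NC fetuses had received distilled water. Only exposed fetuses that looked normal from the outside had entered the group. The fluid was spun and only the supernatant was used, so that whole cells were depleted before RNA extraction. The dam or litter of each fetus is not given in the labels, so the p-values below measure the spread between these samples. In fluid, fewer cells of a type and less RNA released per cell cannot be told apart.

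MicroRNAs are short RNAs that pair with messenger RNAs, mainly through bases 2 to 8 from the 5′ end (the seed), and lower their translation or stability. Amniotic fluid late in gestation receives fetal urine, lung fluid and material shed from the skin, gut and membranes, and many microRNAs in it are typical of a cell type, such as miR-451 and miR-144 of red blood cells or miR-203 and miR-205 of skin.

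Compared with the NC group, 12 of 242 tested microRNAs differed in the non-VSD group at an adjusted p under 0.05, and they are called microRNAs below. The mature sequences of most of those found in RefSeq (build GRCr8) are shown here because members with the same seed can bind the same sites. The seed is in capitals. RefSeq held 9 of the 12, and the sequences of miR-486, miR-423-3p and miR-320-3p are not shown. The first 3 of the sequences were lower in the non-VSD group, miR-27a-3p is added as the microRNA with the same seed as miR-27b-3p, and the rest were higher.
miR-27b-3p: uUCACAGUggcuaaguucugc
let-7e-5p: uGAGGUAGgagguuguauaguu
miR-30a-3p: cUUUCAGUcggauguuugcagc
miR-27a-3p: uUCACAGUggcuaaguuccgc
miR-451-5p: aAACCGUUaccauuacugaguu
miR-185-5p: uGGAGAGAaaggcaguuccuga
miR-126a-3p: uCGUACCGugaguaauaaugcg
miR-292-5p: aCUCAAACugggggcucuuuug

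MiR-27b-3p lies at chr17:1819163-1819183 on the minus strand, within the span of Aopep. Let-7e-5p lies at chr1:67350243-67350264 on the plus strand, within Spaca6, and miR-292-5p at chr1:74879518-74879539 on the minus strand, within Nlrp12. MiR-185-5p lies within Tango2 at chr11:96169041-96169062 and miR-126a-3p within Egfl7 at chr3:29813219-29813240, both on the plus strand. No RefSeq gene other than microRNA genes spans miR-451-5p (chr10:63459585-63459606, plus strand) or miR-30a-3p (chr9:33233987-33234008, plus strand). The strands given are those of the microRNAs, and whether the spanning genes lie on the same strand was not analysed here. Nor was it analysed whether these positions are exonic or intronic.

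NC libraries held 79234 to 248295 microRNA counts each (median 141904), non-VSD libraries 78188 to 331787 (median 159557), and the log2 totals differed by 0.14 (exact two-sided permutation test over 3432 groupings, p = 0.705). A sample held at least 1 count of 266 to 388 microRNAs in the NC group and of 234 to 351 in the non-VSD group (p = 0.148 by the same exact permutation test). In the smallest library 3 counts correspond to 41.4 CPM (counts per 1e6 counts of the library, further scaled by TMM, which assumes most microRNAs unchanged). Levels below that cannot be told from 0 there. Replicate 7 of the non-VSD group stood apart, with 22.8% of its counts on miR-483-5p and 56.0% on its 10 most counted microRNAs, against 44.0% to 49.5% in the other 13 samples.

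Of 507 microRNAs listed, 242 passed the filter on low counts. A DE-microRNA had an unadjusted p under 0.05 and a change of at least 2-fold. By this rule the non-VSD group held 30, with 21 higher (upregulated) and 9 lower (downregulated) than in the NC group. These were 12.4%, 8.68% and 3.72% of the tested microRNAs. At a Benjamini-Hochberg adjusted p under 0.05, 12 microRNAs (4.96%) passed, 8 higher (3.31%) and 4 lower (1.65%) in the non-VSD group. Of the 12, miR-3553 was not a DE-microRNA, at a log2 fold change of -0.97. The median log2 fold change over all 242 was 0.11. The adjusted count was 0 without replicate 1 or 3 of the NC group or replicate 5 of the non-VSD group, and it was 21 without replicate 6 of the non-VSD group. It was 2 and 6 without NC replicates 2 and 4, and 3 and 5 without non-VSD replicates 2 and 3. No such omission turned the direction of a called microRNA, and the highest adjusted p any of the 12 reached was 0.112. MiR-27b-3p was called in 11 of the 14 fits that left out 1 sample, miR-3553 in 10, miR-292-5p in 9, let-7e-5p in 8, and the rest in 4 to 7. The excess of upregulated DE-microRNAs depended on the setting. There were 11 upregulated and 18 downregulated by limma, 52 and 57 without a filter on low counts, 13 and 14 with all 21 fluid samples in one fit, and 13 and 15 without NC replicate 1, against 17 and 11 when scaled by library size only and 23 and 8 by DESeq2.

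**Figure D1:**
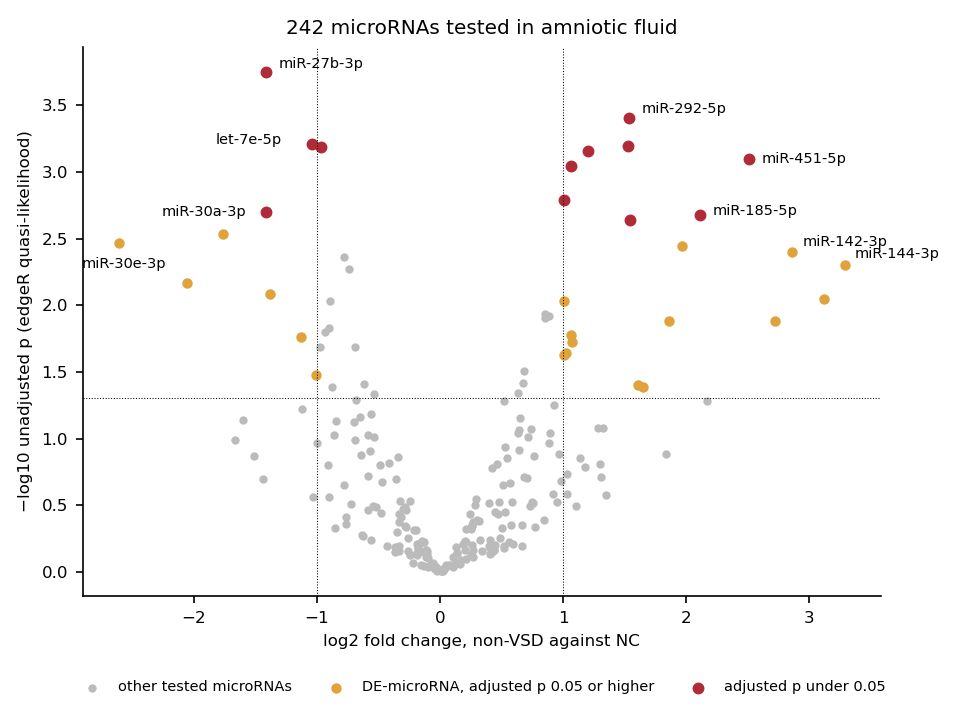
Each point is 1 of the 242 microRNAs tested, with its log2 fold change in non-VSD against NC amniotic fluid on the x axis and -log10 of its unadjusted p on the y axis; dotted lines mark a 2-fold change and a p of 0.05. The 12 microRNAs at an adjusted p under 0.05 lie between log2 fold changes of -1.42 (miR-30a-3p) and 2.51 (miR-451-5p).

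MiR-27b-3p, a microRNA of endothelial, muscle and fat cells, had the lowest p of the comparison. Its level was 4057 CPM in the lowest NC sample, 5940 at the median and 8236 in the highest, against 962, 1941 and 3674 CPM in the non-VSD group. All 7 non-VSD samples lay below all 7 NC samples, which was so of 3 tested microRNAs (2 others lay wholly above, and the 5 together are 2.07% of those tested). Its log2 fold change was -1.41 ± 0.30 (SE), with an adjusted p of 0.0272. It was called under each of 8 other settings.

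MiR-27a-3p, which has the same seed and differs from miR-27b-3p at 1 of 21 bases, was a downregulated DE-microRNA (log2 fold change -1.13 ± 0.43, adjusted p = 0.127). Reads of such close relatives can be assigned to either. The other microRNAs of the miR-27b hairpin cluster were not called. MiR-23b-3p, 242 bases from miR-27b-3p, had a log2 fold change of -0.02 ± 0.25, and miR-24-3p one of -0.21 ± 0.29. The opposite arm, miR-27b-5p, fell below the filter, with 34 counts over the NC samples and 0 over the non-VSD samples. Of the 6 tested members of the miR-23, miR-27 and miR-24 list, 2 were downregulated DE-microRNAs and none was upregulated, with a median log2 fold change of -0.31. Downregulated DE-microRNAs were 3.72% of all tested.

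Let-7e-5p belongs to the let-7 family, which accumulates as embryonic cells differentiate. Its level was 4121, 6019 and 9094 CPM (lowest, median, highest) in the NC group and 1972, 3085 and 4146 CPM in the non-VSD group. The groups overlapped only in that the highest non-VSD sample exceeded the lowest NC sample. The log2 fold change was -1.04 ± 0.26 (adjusted p = 0.0272). Among the 10 tested members of the let-7 and miR-98 list, 9 had a value below 0 with TMM scaling and the median was -0.49. Only 1 was a DE-microRNA, against 12.4% over all tested. Let-7c-5p, the next by p, had a log2 fold change of -0.74 ± 0.23 and an adjusted p of 0.0687. The family took 8.74% to 15.1% of counts in the NC samples and 4.19% to 14.8% in the non-VSD samples, where replicates 6 and 7 were lowest. Members of the family differ at few bases, so reads may be split between them. The cluster neighbours of let-7e, miR-99b-5p and miR-125a-5p, had log2 fold changes of -0.30 ± 0.31 and -0.28 ± 0.28 and were not called.

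The miR-30 family, expressed in many epithelia and in the heart, held 8 tested members, of which 3 were downregulated DE-microRNAs and none was upregulated, with a median log2 fold change of -0.95. Over all tested microRNAs the share downregulated by this rule was 3.72%. MiR-30a-3p was called. It stood at 452, 849 and 1328 CPM in the NC group and at 160, 328 and 565 CPM in the non-VSD group, a log2 fold change of -1.42 ± 0.40 (adjusted p = 0.0464), and the groups overlapped. MiR-30e-3p ranged from 225 to 815 CPM in the NC group and from 0 to 182 CPM in the non-VSD group, with no overlap, and its log2 fold change was -2.61 ± 0.78 (adjusted p = 0.0585). Its non-VSD total was 87 counts over 7 libraries, with 0 in replicates 4 and 7. MiR-30c-5p was the other DE-microRNA (log2 fold change -1.01 ± 0.44, adjusted p = 0.201), and miR-30d-5p had a value of -0.90 ± 0.34 (adjusted p = 0.119). The 5p arm of the miR-30a hairpin had a log2 fold change of -0.70 ± 0.37, and miR-30e-5p one of -0.05 ± 0.57.

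MiR-10 and miR-196 are encoded within the Hox clusters, which pattern the body axis. With TMM scaling all 6 tested members had values below 0, with a median of -0.61, and 2 were downregulated DE-microRNAs, both of the miR-196 seed. The share of downregulated DE-microRNAs over all tested was 3.72%. MiR-196c-5p was at 246, 789 and 1404 CPM in the NC group and at 55.4, 190 and 379 CPM in the non-VSD group (log2 fold change -1.76 ± 0.52, adjusted p = 0.0540). MiR-196a-5p had a log2 fold change of -1.38 ± 0.47 (adjusted p = 0.0944). The third, miR-196b-5p, had a value of -0.52 ± 0.51, which turned to 0.24 without NC replicate 3. The miR-196 members differ at few bases, so reads may be split between them. MiR-672-5p, an X-linked microRNA outside these lists, was the remaining downregulated DE-microRNA (213, 815 and 1792 CPM against 8.27, 193 and 396 CPM, log2 fold change -2.06 ± 0.68, adjusted p = 0.0819).

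**Figure D2:**
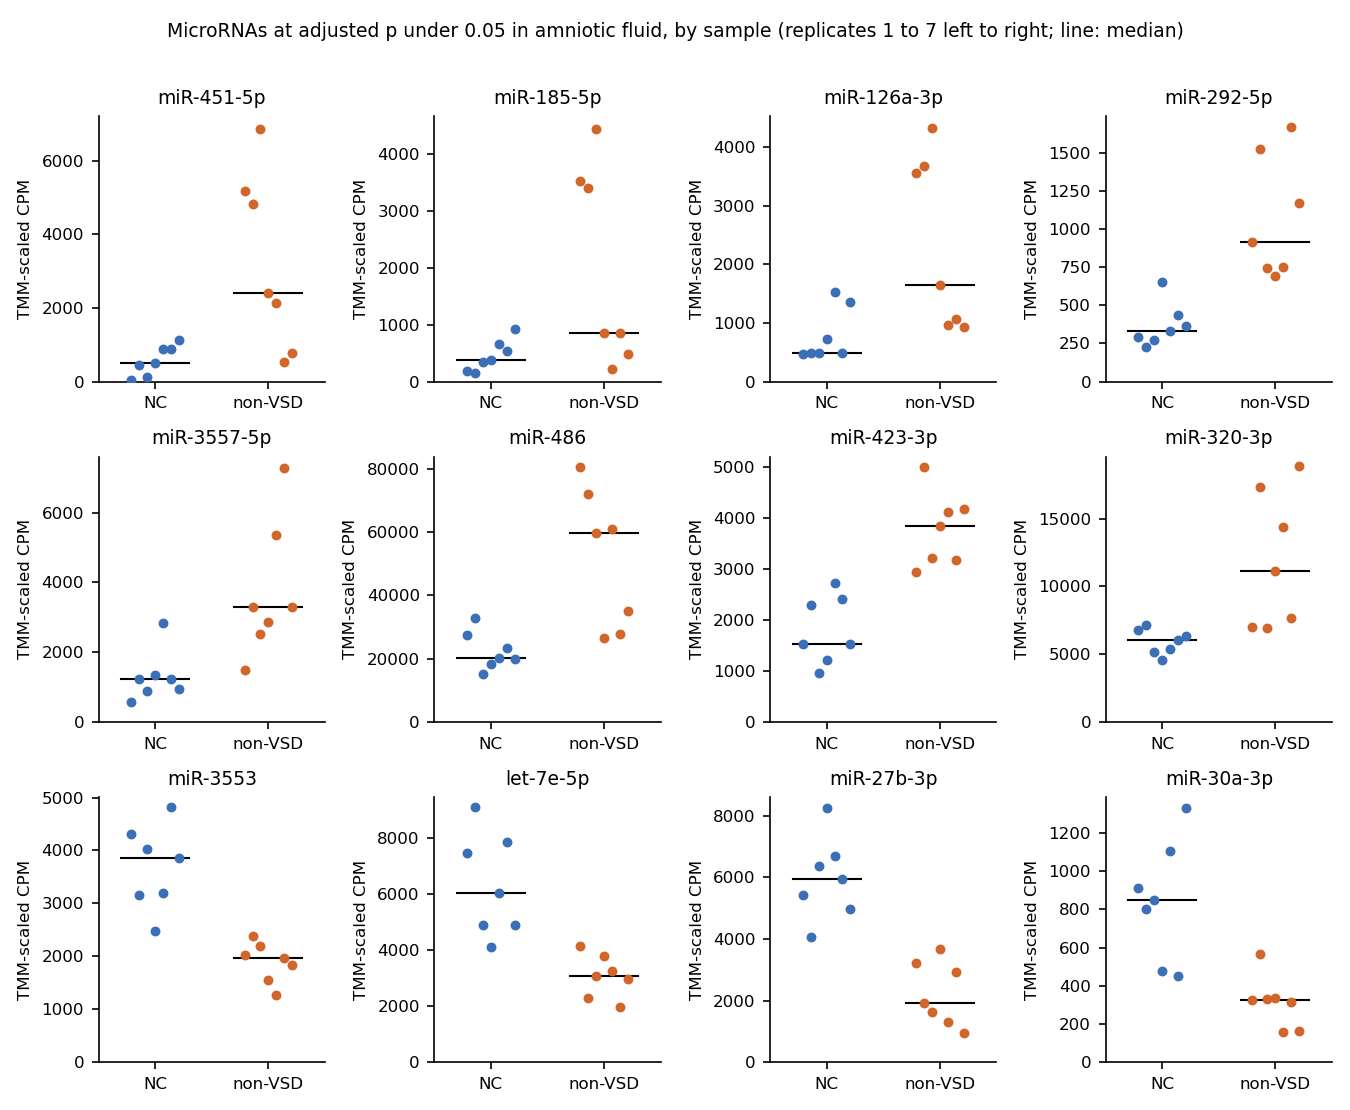
Levels of the 12 called microRNAs in TMM-scaled CPM (y axis, from 0) in the 7 NC and 7 non-VSD amniotic fluid samples (points, replicates 1 to 7 from left to right), with the group median as a line. MiR-27b-3p and miR-3553 are lower and miR-292-5p and miR-423-3p higher in every non-VSD sample than in any NC sample, while miR-451-5p, miR-185-5p and miR-126a-3p are highest in non-VSD replicates 1 to 3.

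MicroRNAs typical of red blood cells were higher in the non-VSD group. All 4 tested members of the list were upregulated DE-microRNAs and 2 of them were called, with a median log2 fold change of 2.81. Over all tested microRNAs 8.68% were upregulated DE-microRNAs and 3.31% were called and higher. MiR-451-5p, an erythroid microRNA processed by Argonaute 2 without Dicer, was at 38.8, 494 and 1126 CPM in the NC group and at 538, 2410 and 6864 CPM in the non-VSD group. Non-VSD replicates 1, 2 and 3 were highest, between 4817 and 6864 CPM, and replicates 6 and 7 lay within the NC range. The log2 fold change was 2.51 ± 0.63 (adjusted p = 0.0272).

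MiR-486, abundant in erythrocytes and muscle, was at 15170, 20370 and 32890 CPM in the NC group and at 26440, 59590 and 80530 CPM in the non-VSD group, where replicates 4 and 6 lay within the NC range. Its log2 fold change was 1.20 ± 0.30 (adjusted p = 0.0272). MiR-144-3p and miR-144-5p come from a hairpin next to that of miR-451 and had log2 fold changes of 3.29 ± 1.04 and 3.12 ± 1.07 (adjusted p = 0.0667 and 0.0944). Without NC replicate 7 these values were 3.96 and 4.40. Both were at or near 0 in several NC samples, and miR-144-3p was 0 in NC replicate 3 and in non-VSD replicate 6. The list as a whole took 1.53% to 3.62% of counts in the NC samples and 2.64% to 8.59% in the non-VSD samples. All 4 members were detected in fluid from which cells had been spun down, and the part of blood in the other differences was not tested.

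MiR-185-5p, miR-126a-3p and miR-142-3p also had their 3 highest values in non-VSD replicates 1 to 3. MiR-185-5p, expressed in the erythroid lineage, was at 147, 377 and 923 CPM in the NC group and at 228, 858 and 4449 CPM in the non-VSD group (log2 fold change 2.11 ± 0.59, adjusted p = 0.0464). Replicates 1, 2 and 3 were between 3409 and 4449 CPM, and the other 4 non-VSD samples lay within the NC range. MiR-126a-3p, the microRNA of endothelial cells encoded in Egfl7, was at 465, 496 and 1528 CPM against 929, 1644 and 4333 CPM, with the same 3 samples highest (log2 fold change 1.54 ± 0.44, adjusted p = 0.0464). The opposite arm, miR-126a-5p, had a value of -0.36 ± 0.97 and rests on few counts (245 over the NC and 234 over the non-VSD samples). It was highest in NC replicate 5, and without that sample its value was 0.14.

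MiR-142-3p, specific to blood cells, was at 154, 658 and 4630 CPM in the NC group and at 290, 6767 and 23120 CPM in the non-VSD group (log2 fold change 2.86 ± 0.88, adjusted p = 0.0605, and 3.67 without NC replicate 7, its highest NC sample). Replicates 1 to 4 of the non-VSD group were above all NC samples and replicates 5, 6 and 7 were not. It was the only DE-microRNA among 5 tested members of the white blood cell list, whose median was 0.48 (12.4% DE-microRNAs over all tested). MiR-146a-5p, induced in immune cells and the most counted of the list in the NC group, had a value of -0.47 ± 0.36. MiR-150-5p, miR-223-3p and miR-146b-5p had values of 0.89 ± 0.53, 0.48 ± 0.45 and 0.02 ± 0.43. MiR-146a-5p, miR-146b-5p and miR-223-3p were each highest in NC replicate 5. MiR-142-5p, under the filter, had 42 counts over the NC and 430 over the non-VSD samples, 243 of them in replicate 2. The white blood cell list took 0.465% to 2.22% of counts in the NC samples and 1.10% to 3.10% in the non-VSD samples.

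MiR-484 and miR-103-3p were further upregulated DE-microRNAs with high values in non-VSD replicates 1 to 3. MiR-484 was at 75.9, 108 and 169 CPM in the NC group and at 41.4, 426 and 780 CPM in the non-VSD group (log2 fold change 1.97 ± 0.59, adjusted p = 0.0585). MiR-103-3p had a log2 fold change of 1.01 ± 0.35 (adjusted p = 0.0944) and stayed a DE-microRNA in 5 of the 14 fits that left out 1 sample, and miR-107-3p, with the same seed, one of 0.86 ± 0.31. Sequences of miR-103-3p and miR-107-3p are nearly alike, so reads may be split between them.

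**Figure D3:**
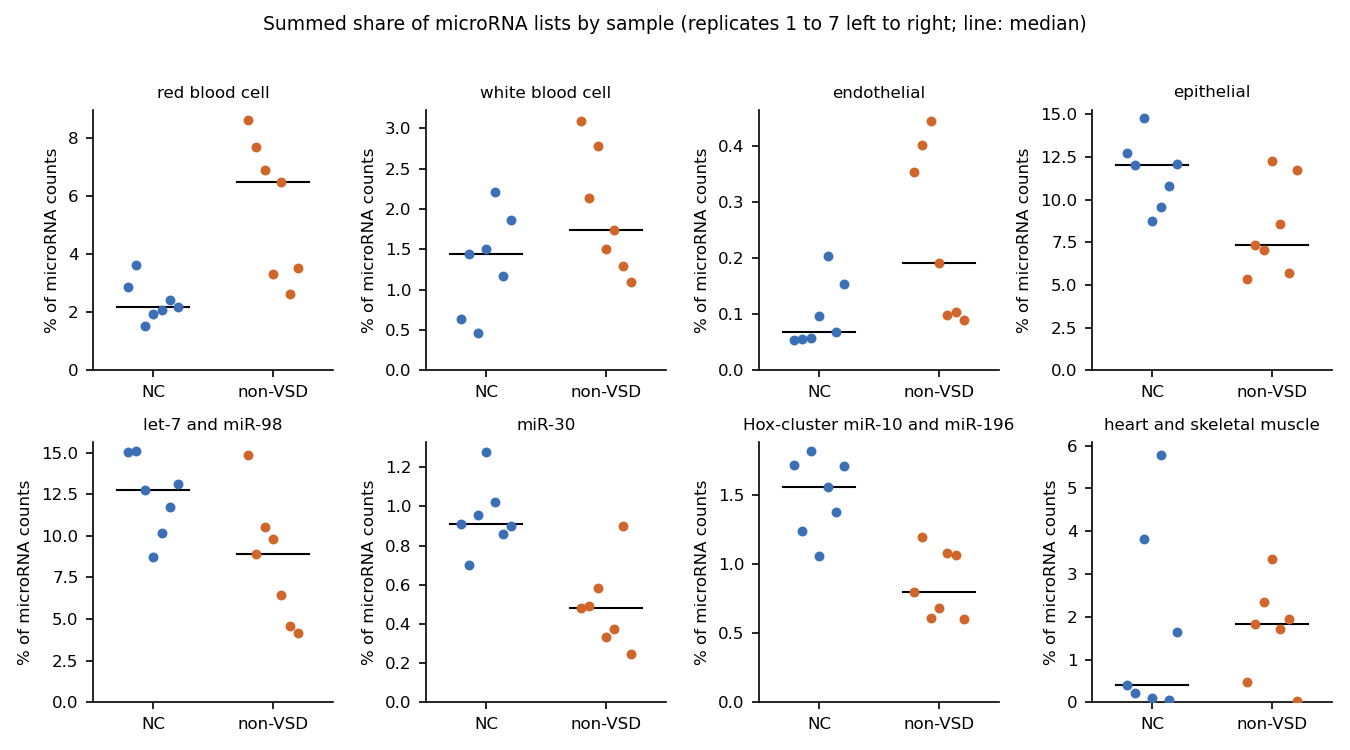
Summed share of all microRNA counts (y axis, percent, from 0) taken by 8 lists in the 7 NC and 7 non-VSD amniotic fluid samples (points, replicates 1 to 7 from left to right; lines are medians). The red blood cell share has a median of 2.18% in the NC and 6.46% in the non-VSD group, and the muscle share spreads from 0.0469% to 5.79% within the NC group alone.

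MiR-292-5p is made from the miR-290-295 cluster, which is active in early embryos and pluripotent cells. It was at 225, 329 and 652 CPM in the NC group and at 694, 917 and 1668 CPM in the non-VSD group, without overlap. The log2 fold change was 1.53 ± 0.36 (adjusted p = 0.0272). The remaining products of the cluster were scarce. MiR-293-5p, which has the same seed, was the only other tested one (0.77 ± 1.02). MiR-292-3p had 3 counts over the NC and 42 over the non-VSD samples, miR-291a-5p had 9 and 62, miR-291a-3p had 17 and 0, and miR-290 and miR-294 had none.

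MiR-423-3p and miR-320-3p are expressed in most tissues and are abundant in body fluids. MiR-423-3p was at 969, 1531 and 2735 CPM in the NC group and at 2937, 3843 and 5000 CPM in the non-VSD group, without overlap (log2 fold change 1.06 ± 0.27, adjusted p = 0.0272). MiR-320-3p, made without Drosha, was at 4560, 6056 and 7178 CPM against 6963, 11170 and 18860 CPM, with replicates 1 and 3 of the non-VSD group inside the NC range. Its log2 fold change was 1.005 ± 0.27 (adjusted p = 0.0438). MiR-423-3p was highest in replicate 2 and miR-320-3p in replicate 7. As DE-microRNAs both were close to the 2-fold limit, and miR-423-3p stayed a DE-microRNA in 10 and miR-320-3p in 8 of the 14 fits that left out 1 sample.

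The remaining 2 called microRNAs, miR-3557-5p and miR-3553, are antisense to other microRNAs. MiR-3557-5p matched the reverse complement of miR-378a-3p over 21 bases and miR-3553 that of miR-183-5p over 22 bases. The study's sources do not state whether the counting used strand, so their values are uncertain. MiR-3553 and miR-183-5p are printed with their seeds in capitals.
miR-3553: cAGUGAAUucuaccagugccaua
miR-183-5p: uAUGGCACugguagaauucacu

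MiR-3553 was at 2482, 3858 and 4830 CPM in the NC group and at 1273, 1972 and 2377 CPM in the non-VSD group, without overlap (log2 fold change -0.97 ± 0.24, adjusted p = 0.0272). MiR-183-5p, a microRNA of sensory and other epithelia, had a value of -0.54 ± 0.31 (adjusted p = 0.349), and its cluster mates miR-182 and miR-96-5p had values of -0.56 ± 0.29 and -0.69 ± 0.40. MiR-3557-5p was at 572, 1222 and 2827 CPM against 1495, 3289 and 7266 CPM (log2 fold change 1.53 ± 0.38, adjusted p = 0.0272), and the groups overlapped. MiR-378a-3p had a log2 fold change of 0.54. Both antisense microRNAs are listed in the fluid table and not in that of the myocardium, whose libraries were made with another kit.

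Some upregulated DE-microRNAs rested on 1 or 2 libraries. MiR-145-5p, a microRNA of smooth muscle, was at 797, 1728 and 2668 CPM in the NC group and at 714, 1072 and 28830 CPM in the non-VSD group, and the highest value was that of replicate 6. Its log2 fold change was 1.61 ± 0.73 (adjusted p = 0.220) and changed to -0.35 without that sample and to -0.24 by DESeq2. MiR-9a-3p, typical of the nervous system, reached 4498 CPM in replicate 2 and 959 CPM in replicate 3 against 13.4 to 388 CPM in the NC group, while the non-VSD median was 120 CPM (log2 fold change 2.72 ± 0.99, adjusted p = 0.110). Without replicate 2 the log2 fold change was 0.80. MiR-483-5p, encoded in Igf2, was at 19990, 34510 and 56540 CPM against 26020, 53440 and 235100 CPM (log2 fold change 1.06 ± 0.41, adjusted p = 0.126). Replicate 7 was highest, and without it the log2 fold change was 0.48.

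The other upregulated DE-microRNAs were miR-101a-3p, miR-301a-3p, miR-351-3p, miR-540-3p and miR-665, with log2 fold changes between 1.01 and 1.86 and adjusted p between 0.110 and 0.220. They stayed DE-microRNAs in 6 (miR-301a-3p) to 13 (miR-101a-3p) of the 14 fits that left out 1 sample. MiR-540-3p and miR-665 belong to the imprinted Dlk1-Dio3 cluster, the largest list, with 42 tested members. Its 2 lowest p were those of miR-411-5p (-0.90 ± 0.31, adjusted p = 0.0944) and miR-134-5p (0.85 ± 0.31, adjusted p = 0.110). It held 2 upregulated and no downregulated DE-microRNAs, against 8.68% and 3.72% over all tested. Its median was 0.26, and it took 10.9% to 21.4% of counts in the NC and 10.3% to 30.4% in the non-VSD samples.

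**Figure D4:**
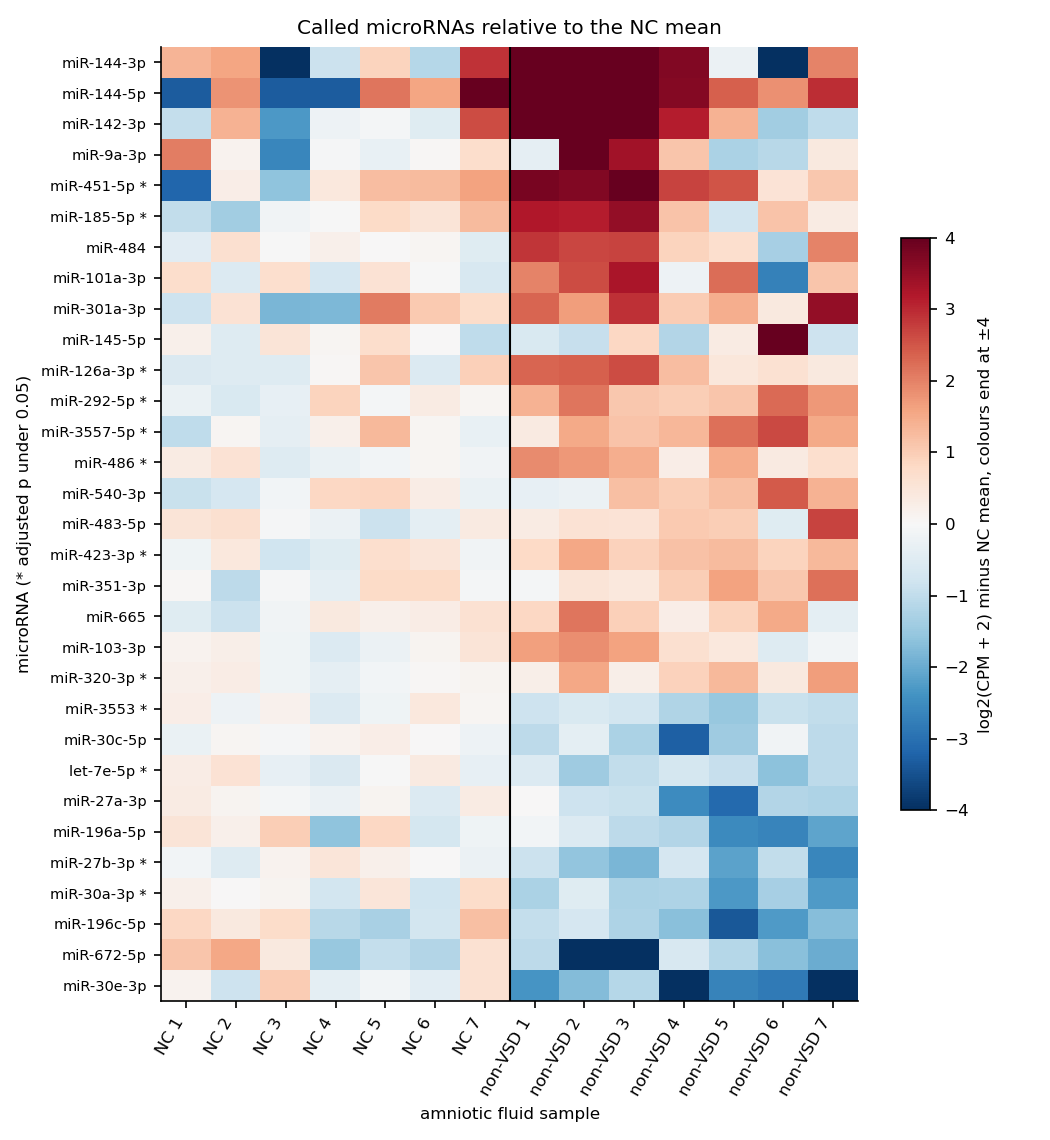
Log2(CPM + 2) of 31 microRNAs (rows, the 30 DE-microRNAs and miR-3553) in 14 amniotic fluid samples (columns) minus the mean of the NC samples, red higher and blue lower, with colours ending at 4 in either direction. MiR-144, miR-142-3p, miR-451-5p, miR-185-5p and miR-484 are darkest red in non-VSD replicates 1 to 3, and miR-145-5p in replicate 6 alone.

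Epithelial microRNAs, which mark skin and the linings of lung, gut and kidney, included no DE-microRNA among 9 tested members (median log2 fold change -0.17). With 12.4% DE-microRNAs over all tested, a list of this size can hold none without being set apart. MiR-203a-3p, a microRNA of differentiating keratinocytes and among the most abundant here, was at 47230, 59990 and 76530 CPM in the NC group and at 24750, 32670 and 58190 CPM in the non-VSD group. Its log2 fold change of -0.78 ± 0.24 had an unadjusted p of 0.00433 and an adjusted p of 0.0617. The next by p lay on both sides of 0, with miR-141-3p at -0.65 ± 0.34, miR-200c-3p at 0.63 ± 0.36 and miR-200b-5p at -0.91 ± 0.62. MiR-205, another abundant skin microRNA, had a value of -0.17 ± 0.31, and the other 4 members lay between -0.25 and 0.21. The epithelial list took 8.78% to 14.8% of counts in the NC and 5.34% to 12.3% in the non-VSD samples.

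The most abundant microRNA was miR-3473 (65110 ± 19190 CPM in the NC and 79530 ± 23340 CPM in the non-VSD group, mean ± SD, n = 7 each), with a log2 fold change of 0.29 ± 0.26. MiR-16-5p followed at 54770 ± 9987 and 63310 ± 42520 CPM, with a log2 fold change of 0.21 ± 0.38, and it ranged from 14670 to 121200 CPM within the non-VSD group. MiR-199a-3p, of mesenchyme, had a value of -0.93 ± 0.35 (adjusted p = 0.123). MiR-382-5p, let-7i-5p and miR-434-3p, also among the 10 most abundant, had values of 0.25 ± 0.34, -0.11 ± 0.28 and -0.58 ± 0.33.

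No tested muscle microRNA was a DE-microRNA, and their levels spread widely within each group. MiR-206-3p, of skeletal muscle, ranged from 255 to 57880 CPM among NC samples and from 109 to 29130 CPM among non-VSD samples (log2 fold change -0.10 ± 0.95), and its sign changed with several settings. MiR-1-3p, of heart and skeletal muscle, was at 0 counts in 2 NC and 2 non-VSD samples and reached 1066 and 871 CPM in the highest of each group (0.59 ± 1.17). MiR-1b had a value of 0.75 ± 0.72, which turned to -0.51 by limma, and miR-184, a microRNA of lens and other epithelia, one of 1.10 ± 1.08, which turned to -0.18 without non-VSD replicate 6. MiR-208b-3p, encoded in the slow myosin gene Myh7, had the lowest p of the list, with a value of 1.35 ± 1.18 on 62 counts over the NC and 206 over the non-VSD samples. The muscle list had 4 tested members and a median of 0.67. Its lack of DE-microRNAs says little at this size, with 12.4% over all tested. At these standard errors a 2-fold difference of miR-1-3p or miR-206-3p was not detectable.

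Of the other lists, the miR-17-92 group and its paralogs (13 tested), miR-29 (3), miR-181 (6), miR-15 and miR-16 (4), miR-99, miR-100 and miR-125 (9), the ciliated cell list (4), the liver and gut list (4) and miR-183, miR-96 and miR-182 (3) held no DE-microRNA. At 12.4% DE-microRNAs over all tested, lists of these sizes can hold none without being set apart. The smooth muscle and mesenchyme list (7 tested, median 0.02), the neural list (4 tested, median 1.58), the endothelial list (2 tested, median 0.59) and the miR-101 list (1 tested) each held 1 upregulated DE-microRNA, named above. MiR-92a-3p (0.88 ± 0.32), miR-10a-5p of the Hox list (-0.69 ± 0.27), miR-215 of gut and kidney (-0.98 ± 0.39), miR-181b-5p (0.64 ± 0.30) and miR-125b-5p (-0.54 ± 0.25) passed the unadjusted p but not the 2-fold change, at adjusted p of 0.110, 0.138, 0.138, 0.238 and 0.238. The lowest p of the ciliated cell, miR-15 and miR-16, and miR-29 lists were those of miR-34c-3p (-1.66 ± 0.97), miR-322-5p (-0.69 ± 0.33) and miR-29a-3p (0.71 ± 0.53), and none passed.

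Fluid of the fetuses with a VSD had been measured against the same 7 NC samples, so only the values are set side by side. All 12 called microRNAs had the same direction in the VSD group, which the shared NC samples make likelier. The share of all tested microRNAs with the same direction was not computed. In the VSD group 0 of the 12 had an adjusted p under 0.05, and so had 0 of all 245 tested there. Values of some are given. MiR-292-5p and miR-486 had log2 fold changes of 1.42 and 1.19 in the VSD group, miR-451-5p and miR-185-5p of 1.62 and 1.73, miR-27b-3p of -0.71 and let-7e-5p of -0.51. MiR-423-3p and miR-3553 had values of 0.22 and -0.07. The direct comparison of both exposed groups was made in a fit of all 21 fluid samples with 273 microRNAs tested. By edgeR, none had an adjusted p under 0.05 (lowest 0.0572) and 29 had an unadjusted p under 0.05, and by DESeq2 6 had an adjusted p under 0.05. The 12 called microRNAs were chosen on the same 7 non-VSD samples, so values there are given with no test and only for some of them. MiR-3553 was 0.95 and miR-27b-3p 0.77 higher on the log2 scale in the VSD group.

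In the myocardium of non-VSD against NC fetuses, which has its own control libraries, 10 of the 12 were tested. None of them had an adjusted p under 0.05, against 1 of all 456 microRNAs tested there. At an unadjusted p under 0.05, in either direction, were 4 of the 10 and 80 of the 456. The myocardium RNA came from paraffin blocks, with another extraction kit, library kit and sequencer than the fluid. The effect of this on the values was not tested. The direction was that of the fluid for 5 of the 10. Red blood cell microRNAs had values below 0 in the myocardium, -1.56 ± 0.67 for miR-451-5p and -1.65 ± 0.59 for miR-486, where both were above 0 in the fluid. MiR-126a-3p was above 0 in both (0.77 ± 0.20 in the myocardium). MiR-27b-3p, let-7e-5p and miR-30a-3p had values of -0.10, -0.09 and -0.13 there.

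**Figure D5:**
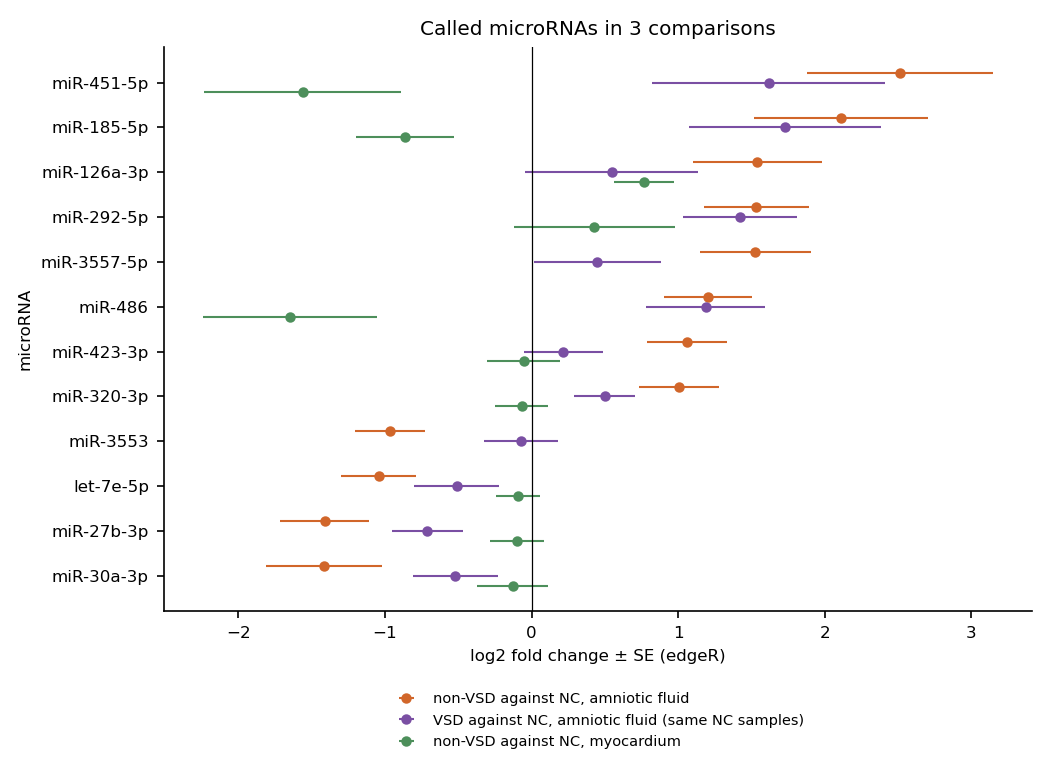
Log2 fold change with its standard error (x axis) of the 12 called microRNAs (rows) in non-VSD against NC amniotic fluid, in VSD against the same NC amniotic fluid samples, and in non-VSD against NC myocardium, where 10 of them were tested. MiR-451-5p, miR-486 and miR-185-5p lie above 0 in both fluids and below 0 in the myocardium.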

How the data were processed

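Small RNA of amniotic fluid supernatant was extracted with the HiPure kit, made into libraries with the QIAseq miRNA kit and sequenced on an Illumina instrument. The authors converted base calls with bcl2fastq 2.19, filtered the reads and deposited raw counts per mature microRNA for each sample. The aligner, annotation, genome build, strand setting and use of molecular identifiers are not given in the sources used here. The deposited tables also hold CPM (14 columns), group means (2 columns) and the authors' own comparison, which were not used.

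Counts of 7 NC and 7 non-VSD samples were tested with edgeR 4.0.16 (R 4.3.3), by filterByExpr (minimum count 10, minimum total 15), TMM, and a two-sided quasi-likelihood test with Benjamini-Hochberg adjustment over the 242 tested. Library sizes were column sums. Library totals and numbers of microRNAs detected used exact permutation tests. The limit at 3 counts covers counting error only. Standard errors came from the quasi-likelihood fit, which includes the spread between samples. Other settings were limma 3.58.1 on log2(CPM + 1), DESeq2 1.42.0, other scalings and filters, all 21 fluid samples in one fit, a replicate block and leaving out each sample. The fit was tested on simulated data. Of 43 microRNAs with a 2-fold change 32.6% reached an adjusted p under 0.05 and 51.2% were DE-microRNAs. With a 4-fold change (48) these were 72.9% and 87.5%, and among 132 unchanged 0.758% and 3.03%. Many 2-fold differences would thus be missed. In that simulation only 132 of the 223 tested microRNAs were unchanged. Where fewer microRNAs change, the Benjamini-Hochberg threshold is stricter, so the adjusted shares may be lower in these data. Figures were drawn with matplotlib 3.10.9.

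Named were all called and DE-microRNAs, the 10 most abundant and up to 4 members of each list (lowest p first). Also named were products of the same hairpins or clusters and the 4 under the filter with the largest difference of total counts. Of the microRNAs the study followed in amniotic fluid, miR-1-3p, miR-1b, miR-206-3p and miR-184 were named. Others it followed, such as miR-15b-5p (log2 fold change 0.92 ± 0.79) and miR-122-5p (0.68 ± 0.51), were not chosen on that ground. MiR-107-3p, miR-378a-3p, miR-30e-5p, miR-146b-5p, miR-409a-3p and miR-409b were added after their values were seen. Members, lists and rule were chosen with earlier results of these data known.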

Additional observations from a re-analysis of the deposited data

Results flagged for a closer look

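In 92 sets of 7 values (a microRNA or depth measure in the NC or the non-VSD group), 8 held a sample farther from the rest than Dixon's criterion at 95% allows, and chance flags about 5% of such sets. For microRNAs the criterion was applied to log2(CPM + 2), where a low value or a 0 stands farther out than on the CPM scale printed here. All 8 lay in the non-VSD group, and 6 of them were values of its replicate 7. In that sample miR-205 was highest at 68500 CPM (next 30750), the 10 most counted microRNAs took 56.0298% of counts, miR-199a-3p was lowest at 9539 CPM (next 23350), miR-206-3p was lowest at 109.3 CPM (next 4897), and miR-1b and miR-184 were at 0 counts, where the next lowest samples had 71.5 and 77.5 CPM. MiR-145-5p was highest in replicate 6 at 28830 CPM (next 2878), and miR-30c-5p lowest in replicate 4 at 56.52 CPM (next 209). Without replicate 7 the DE-microRNAs numbered 32, and 11 tested microRNAs had an adjusted p under 0.05.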

How the results depend on the processing

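The 30 DE-microRNAs (21 up, 9 down) became 29 (11 up, 18 down) by limma, 109 (52 up, 57 down) without a filter, 27 (13 up, 14 down) with all 21 fluid samples, 20 (17 up, 3 down) with at least 10 counts in every sample, and 25 to 37 (13 to 23 up, 7 to 15 down) with 1 sample left out. The 12 at an adjusted p under 0.05 became 29 by DESeq2, 4 by limma and 0 to 21 with 1 sample left out. DESeq2 called all 12, limma 4 of them. The labels do not state that replicate numbers pair the samples. Same-numbered samples correlated at -0.21 to 0.28 and none correlated best with its own number. Each was set against the best of several others, so this cannot decide whether same-numbered samples share a batch or litter. With the replicate block there were 19 DE-microRNAs (7 up, 12 down) and 2 at an adjusted p under 0.05. Between VSD and non-VSD fluid the adjusted count of 0 became 6 by DESeq2, 1 by library size, 4 with at least 10 counts in every sample and 0 to 2 with 1 sample left out. The difference of log2 total counts ran from -0.0568 (without non-VSD replicate 2) to 0.291, and that of microRNAs detected from -46.05 to -25.71.

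Of 106 microRNAs (those named and the 4 of each list with the lowest p), 23 changed sign under a setting. By DESeq2, miR-145-5p (-0.241), miR-23b-3p (0.0308) and miR-34c-5p (0.0548) did, by RLE miR-23b-3p (0.0295) and miR-34c-5p (0.0548), by library size miR-146b-5p (-0.0166), without a filter miR-34c-5p (0.0161) and with all 21 fluid samples miR-146b-5p (-0.0631). By limma it was miR-15b-5p (-0.679), miR-16-5p (-0.152), miR-1b (-0.506), miR-206-3p (0.812), miR-29b-3p (-1.43), miR-34b-3p (-0.159), miR-34c-5p (0.334), miR-7a-5p (-0.0544) and miR-9a-5p (-2.12). With at least 10 counts in every sample it was let-7i-5p (0.0559), miR-128-3p (0.0262), miR-205 (0.0133), miR-206-3p (0.0718), miR-23b-3p (0.120) and miR-34c-5p (0.124), and with the replicate block miR-15b-5p (-0.0692), miR-16-5p (-0.102), miR-206-3p (1.05), miR-29b-3p (-0.655), miR-34c-5p (0.334) and miR-9a-5p (-1.27). With 1 sample left out, the log2 fold changes ran from -0.405 to 0.651 for miR-206-3p, from -1.27 to 0.141 for miR-126a-5p, from -0.0903 to 0.357 for miR-16-5p, from -0.120 to 0.369 for miR-99b-3p, from -0.354 to 1.83 for miR-145-5p, from -0.180 to 1.69 for miR-184, from -0.0905 to 0.395 for miR-382-5p, from -0.145 to 0.449 for miR-125a-3p, from -0.203 to 0.0134 for miR-23b-3p, from -0.199 to 0.211 for miR-146b-5p, from -0.293 to 0.409 for miR-34c-5p, from -0.794 to 0.241 for miR-196b-5p, from -0.778 to 0.214 for miR-322-3p, from -0.362 to 0.145 for miR-128-3p, from -0.278 to 0.672 for miR-29b-3p and from -0.346 to 0.130 for miR-30e-5p. The cause was not tested. The library totals limit what can be seen of scarce microRNAs.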

Other observations

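Among microRNAs under the filter, those with the largest difference of total counts were picked, and their counts lay mostly in a few libraries. MiR-190a-5p had 35 counts over the NC and 263 over the non-VSD samples, with 70, 99 and 72 in non-VSD replicates 1 to 3. MiR-1224 had 22 and 131, with 57 and 46 in non-VSD replicates 2 and 5. MiR-382-3p had 287 and 85, with 100, 92 and 67 in NC replicates 4 to 6. Of 46 pairs of rat microRNAs in RefSeq that are reverse complements over at least 18 bases, both members of 12 were listed in the fluid table. MiR-409b, the reverse complement of miR-409a-3p over 20 bases, had more counts (8687 over the NC and 10579 over the non-VSD samples) than miR-409a-3p (320 and 507). Among 37 hairpins with both arms tested, the arms had log2 fold changes of the same sign in 23.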
